A study of Homo sapiens with 9 samples.

Results

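The genes described here are the epidermal growth factor (EGF) receptor family and its ligands, together with a receptor and a pair of kinases that have been tied to zinc signalling by ZIP7 in breast cancer cells. The 10 members, EGFR, ERBB2, ERBB3, IGF1R, AREG, EREG, HBEGF, TGFA, SRC and CSNK2A1, were chosen by name from 58395 gene identifiers, after the Ensembl identifiers had been matched to GENCODE symbols. All 10 were among the 16761 genes with enough reads to be tested. RNA-seq was performed on MDA-MB-231, a human triple-negative breast cancer cell line, 96 h after reverse transfection of siRNA in culture medium with serum, to ask how knockdown of the zinc transporter ZIP7 (gene SLC39A7) alters transcription. The 3 groups had 3 libraries each. The siNC cells received a nontargeting control siRNA, and the other groups received either of 2 siRNAs against ZIP7, labelled ZIP7 siRNA_1 and ZIP7 siRNA_2 and here called siZIP7_1 and siZIP7_2. All groups were transfected, no group was left without siRNA, and each ZIP7 siRNA was a single reagent from its own supplier. The labels do not say whether the libraries of a group came from separate cultures, so the p-values measure the spread between these libraries, which may be technical.

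The EGF receptor family consists of the receptor tyrosine kinases EGFR, ERBB2, ERBB3 and ERBB4, which signal as pairs. Their ligands are made as membrane-anchored precursors and are released by ADAM proteases, and paired receptors then pass the signal through adaptors to the RAS-ERK cascade and to PI3K and AKT. ZIP7 moves zinc from the endoplasmic reticulum to the cytosol, casein kinase 2 (CK2) phosphorylates ZIP7 to open it, and the zinc released in this way has been linked to the phosphorylation of EGFR, IGF1R and SRC in breast cancer cells. The libraries measure transcripts, and neither protein, phosphorylation nor zinc was measured in them. In bulk RNA, fewer cells expressing a gene and less RNA per cell cannot be told apart.

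SLC39A7, the targeted gene, is given in CPM, the reads of a gene scaled to the size of its library. It ran from 321 to 343 CPM in the siNC libraries, from 32.9 to 38.6 CPM with siZIP7_1, and from 17.6 to 20.5 CPM with siZIP7_2. Its mean was 10.8% of siNC with siZIP7_1 and 5.84% with siZIP7_2, so the labels match the target. The libraries held 24153785 to 30454419 reads assigned to genes, and 3 counts corresponded to 0.0985 to 0.124 CPM, a limit that covers counting error only. Reads on no annotated gene made up 7.43% to 8.28% of reads in siNC, 7.80% to 9.62% with siZIP7_1 and 9.99% to 11.5% with siZIP7_2, and the part of this share in the results was not tested. The estrogen and progesterone receptor genes ESR1 and PGR were under 1 CPM in every group, while ERBB2, the other receptor that defines a triple-negative line, was at 56.7 to 91.5 CPM. All 5 mesenchymal markers were above 1 CPM. Their sum was 9530 to 10100 CPM in siNC, 6500 to 6870 CPM under siZIP7_1 and 8030 to 8350 CPM under siZIP7_2. VIM (5529, 2687 and 2896 CPM on average) and AXL were lower with both siRNAs, and MSN was higher with both. CD44 was lower with siZIP7_1 and higher with siZIP7_2, and FN1 was lower with siZIP7_2 only. The 2 luminal markers summed to 17.7 to 19.3, 11 to 11.3 and 16.7 to 17.8 CPM in the same order. Among the markers of other cell types, leukocyte (3 genes), hepatocyte (2 genes) and erythroid (2 genes) lists summed to at most 2.15 CPM in any library, and 1 of the 2 erythroid genes was at 0 in every library. The sum of 3 endothelial markers was 2.90 to 3.45 CPM in siNC, 1.03 to 1.24 CPM under siZIP7_1 and 12.9 to 14.2 CPM under siZIP7_2. PECAM1 (3.02, 0.102 and 8.63 CPM on average in siNC, siZIP7_1 and siZIP7_2) carried the fall with siZIP7_1. CDH5 and VWF were higher with siZIP7_1 than in siNC, though under 1 CPM. The sum of 5 epithelial junction markers was 31.1 to 32.7, 46.1 to 49.1 and 162 to 184 CPM, and that of 3 fibroblast markers 52.1 to 57.9, 108 to 115 and 173 to 195 CPM, in the same order. CLDN4 carried most of the epithelial sum (24.3, 32.5 and 169 CPM), whereas CDH1 and EPCAM were highest with siZIP7_1. COL1A1 carried nearly all of the fibroblast sum, since COL1A2 and PDGFRA were under 1 CPM in every group. These single markers were named after their values were seen. These sums moved with the siRNA groups, and their part in the results below was not tested.

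AREG, EREG and EPGN are ligand genes that follow each other on the plus strand of chromosome 4, yet their transcripts moved differently with the siRNAs, and HBEGF is the member with the largest difference between the siRNAs. The bases before their starts are shown so that the promoters can be compared beside those values. They come from the RefSeq promoter windows of GRCh38.p14, which run from 250 bases before to 50 bases after each start, and only bases outside the GENCODE gene are printed. In AREG, EREG and EPGN the capitals mark a cyclic AMP response element (TGACGTCA) and a TATA box (TATAAA), and in HBEGF they mark SP1 boxes (GGGCGG, or CCGCCC where the match is on the opposite strand).
AREG: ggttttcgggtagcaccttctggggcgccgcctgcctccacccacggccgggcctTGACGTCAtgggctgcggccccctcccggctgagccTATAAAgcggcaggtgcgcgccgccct
EREG: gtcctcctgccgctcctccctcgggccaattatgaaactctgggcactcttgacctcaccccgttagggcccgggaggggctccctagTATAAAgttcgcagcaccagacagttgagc
EPGN: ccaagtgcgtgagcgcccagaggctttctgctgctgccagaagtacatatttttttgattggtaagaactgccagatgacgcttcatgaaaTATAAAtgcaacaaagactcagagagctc
HBEGF: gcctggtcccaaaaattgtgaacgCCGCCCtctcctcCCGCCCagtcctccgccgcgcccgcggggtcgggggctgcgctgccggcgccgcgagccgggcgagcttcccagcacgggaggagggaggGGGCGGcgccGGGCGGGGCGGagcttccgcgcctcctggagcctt
The AREG bases are chr4:74445016-74445133, the EREG bases chr4:74365025-74365142 and the EPGN bases chr4:74308350-74308469, all on the plus strand, and the HBEGF bases are chr5:140346632-140346803 on the minus strand. AREG holds a cyclic AMP response element that begins 65 bases before the start and a TATA box that begins 29 bases before it, and also an SP1 box at 9 bases that is left in lower case. EREG and EPGN hold a TATA box at 32 and 29 bases and no exact cyclic AMP response element. HBEGF holds 5 SP1 boxes, of which those at 63 and 58 bases share 1 base, and no TATA box. Of 35116 RefSeq windows of 300 bases, searched on both strands, 1.85% hold a cyclic AMP response element, 11.5% a TATA box and 45.0% an SP1 box. An AP-1 site (TGACTCA) is in 4.95% of all windows and a metal response element (TGCACNC) in 12.1%. No AP-1 site was found in the windows of the 8 members that matched, and a metal response element was found in that of CSNK2A1. A match, or its absence, describes only these letters in these windows.

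All 10 members passed the edgeR test at an adjusted p under 0.05 in each of the 3 comparisons, and in none of them did the libraries of the groups compared overlap. The share of all tested genes that passed was also high, at 70.7% for siZIP7_1 against siNC, 77.8% for siZIP7_2 against siNC and 78.7% for siZIP7_2 against siZIP7_1, so the count of members is read against those shares and passing is not by itself a feature of them. Among all tested genes, the libraries did not overlap for 72.1%, 78.7% and 79.7% in the same order. With siZIP7_1, 4 members were higher than in siNC and 6 lower, beside 34.8% and 35.9% of all tested genes. With siZIP7_2, 7 were higher and 3 lower, beside 38.5% and 39.3%. Their median log2 fold changes were -0.23 and 0.66, and those of all tested genes were -0.0069 and -0.0018. In a test against a change of 1.8-fold, 3 members passed with siZIP7_1 and 4 with siZIP7_2, beside 16.9% and 24.7% of all genes. Between the ZIP7 siRNAs, 6 members were higher and 4 lower with siZIP7_2 than with siZIP7_1, beside 38.1% and 40.6%, and 7 passed the 1.8-fold test, beside 28.2%. Both comparisons with siNC share the same control libraries, so their values are set side by side and the direct comparison of the siRNAs is given as well.

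**Figure D1:**
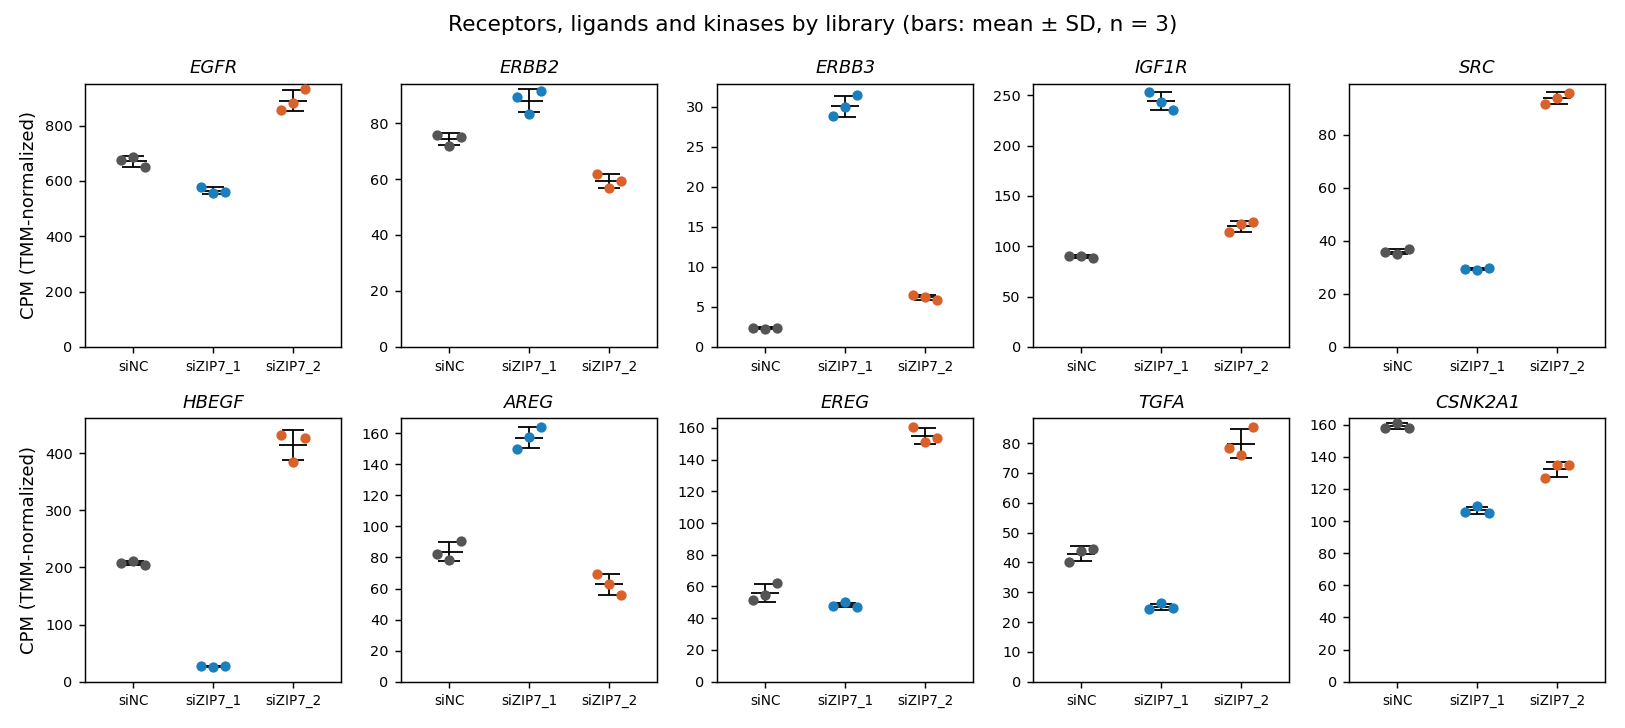
Level (CPM after TMM normalization) in each library of the 10 members, by siRNA group; points are libraries, and the bars are the mean ± SD of 3 libraries on axes that start at 0. HBEGF sits near 208 CPM in siNC, 27 CPM under siZIP7_1 and 414 CPM under siZIP7_2, and the libraries of different groups do not overlap in any panel.

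EGFR, the receptor of EGF and most related ligands, was lower with siZIP7_1 and higher with siZIP7_2 than in siNC. The gene (ENSG00000146648) lies on chromosome 7 from 55019021 to 55211628 in GENCODE 29 (GRCh38), on the plus strand. Its level was 676, 688 and 649 CPM in the siNC libraries, 579.6, 555 and 559 CPM with siZIP7_1, and 856, 881 and 933 CPM with siZIP7_2. Every siZIP7_1 library was below every siNC library, and every siZIP7_2 library above. Against siNC, EGFR had a log2 fold change of -0.25 ± 0.047 (SE) under siZIP7_1 (adjusted p = 3.2e-05) and of 0.41 ± 0.047 under siZIP7_2 (adjusted p = 6.6e-09). The siRNAs differed from each other by 0.66 on the log2 scale (95% interval 0.56 to 0.75). None of these EGFR changes passed the 1.8-fold test.

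ERBB2, the partner receptor with no known ligand of its own, moved the other way in each group. The gene (ENSG00000141736) lies on the plus strand of chromosome 17 from 39687914 to 39730426, and 7.41% of its exonic bases are shared with MIEN1 and PGAP3. It stood at 75.6, 71.7 and 75.2 CPM in siNC, at 89.4, 83.3 and 91.5 CPM under siZIP7_1 and at 61.9, 56.7 and 59.3 CPM under siZIP7_2. The siZIP7_1 libraries were the highest and the siZIP7_2 libraries the lowest. Relative to siNC, ERBB2 differed by 0.25 ± 0.051 on the log2 scale under siZIP7_1 (adjusted p = 9.5e-05) and by -0.32 ± 0.052 under siZIP7_2 (adjusted p = 2.4e-06).

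ERBB3, a neuregulin receptor with weak kinase activity that recruits PI3K when paired with ERBB2, was higher with both siRNAs, and much more so with siZIP7_1. The gene (ENSG00000065361) lies on the plus strand of chromosome 12 from 56076799 to 56103505. It stood at 2.40, 2.28 and 2.42 CPM in siNC, where 53 to 68 reads were counted per library. With siZIP7_1 it reached 28.8, 29.99 and 31.4 CPM, and with siZIP7_2 it reached 6.48, 6.19 and 5.88 CPM. The groups were far apart compared with their spread. ERBB3 was 12.7-fold higher with siZIP7_1 (log2 fold change 3.67 ± 0.094, adjusted p = 1.5e-23) and 2.61-fold higher with siZIP7_2 (1.38 ± 0.12, adjusted p = 1.1e-11). The log2 difference, siZIP7_2 minus siZIP7_1, was -2.28 ± 0.079. Of the 5 epithelial markers, CDH1 (0.466, 4.18 and 0.998 CPM on average in siNC, siZIP7_1 and siZIP7_2) and EPCAM (6.57, 9.68 and 4.42 CPM) were also highest with siZIP7_1. EPCAM, unlike ERBB3, was lower than siNC with siZIP7_2. CLDN4 (24.3, 32.5 and 169 CPM) and CLDN3 (0.225, 0.384 and 1.03 CPM) were highest with siZIP7_2, and ESRP1 did not pass against siNC with either siRNA. The part of these markers in the ERBB3 result was not tested. ERBB4, the fourth receptor of the family, was near the limit of detection with 3 to 7 reads per siNC library, 20 to 28 with siZIP7_1 and 2 to 12 with siZIP7_2. It was higher with siZIP7_1 (log2 fold change 2.09 ± 0.40, adjusted p = 3.1e-05), and with siZIP7_2 the value was 0.27 (95% interval -0.81 to 1.35, adjusted p = 0.64).

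**Figure D2:**
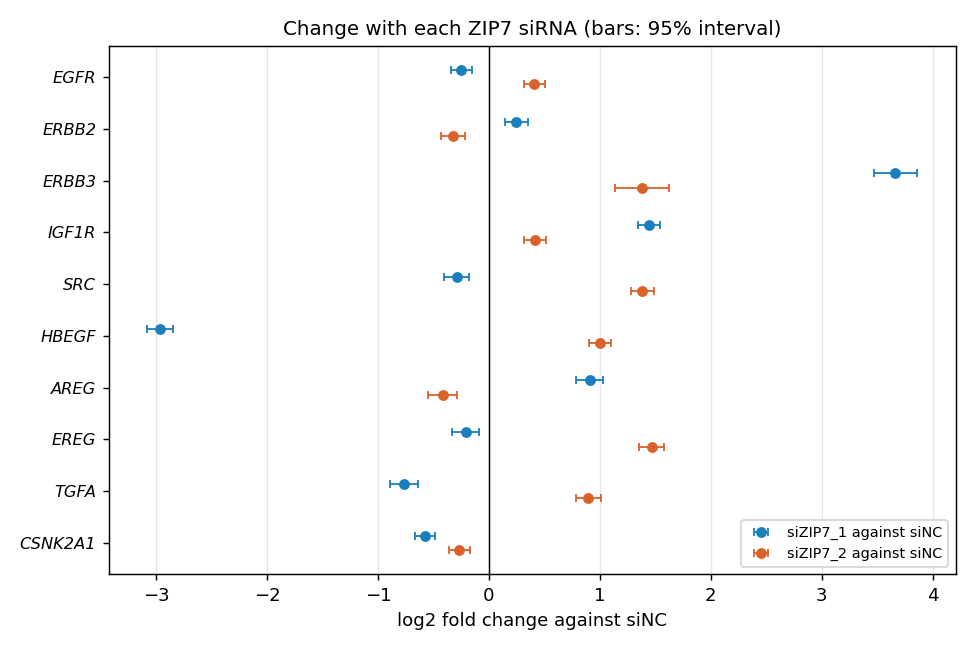
Log2 fold change of the 10 members against siNC with siZIP7_1 and siZIP7_2; points are edgeR estimates, horizontal bars are 95% intervals and the vertical line marks no change. HBEGF is at -2.96 with siZIP7_1 and 1.00 with siZIP7_2, and ERBB3 is at 3.67 and 1.38.

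HBEGF, the heparin-binding EGF-like factor that binds EGFR and ERBB4, had the largest difference between the siRNAs among the members. The gene (ENSG00000113070), whose promoter with its SP1 boxes is printed above, lies on the minus strand of chromosome 5 from 140332843 to 140346631. It stood at 208, 211 and 204 CPM in siNC, at 27.5, 25.4 and 26.8 CPM under siZIP7_1 and at 432, 384 and 427 CPM under siZIP7_2. The siZIP7_1 libraries were all far below siNC and the siZIP7_2 libraries all far above. HBEGF changed by -2.96 ± 0.056 on the log2 scale under siZIP7_1 (adjusted p = 1.9e-26) and by 1.00 ± 0.049 under siZIP7_2 (adjusted p = 4.0e-17). The level with siZIP7_2 was 15.6-fold that with siZIP7_1, and HBEGF passed the 1.8-fold test in all 3 comparisons.

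AREG, which encodes amphiregulin, a ligand of EGFR alone, ran against the other ligands of the set. The gene (ENSG00000109321) lies on the plus strand of chromosome 4 from 74445134 to 74455009. Its level was 82.1, 78.5 and 90.4 CPM in siNC, 150.0, 158 and 164 CPM with siZIP7_1, and 69.3, 63.0 and 55.8 CPM with siZIP7_2. All siZIP7_1 libraries were above siNC and all siZIP7_2 libraries below it. For AREG the log2 fold change against siNC was 0.91 ± 0.061 under siZIP7_1 (adjusted p = 7.1e-14) and -0.42 ± 0.063 under siZIP7_2 (adjusted p = 8.6e-07). Its log2 difference, siZIP7_2 minus siZIP7_1, was -1.33 ± 0.062.

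EREG, which encodes epiregulin, a ligand of EGFR and ERBB4, was slightly below siNC with siZIP7_1 and well above it with siZIP7_2. The gene (ENSG00000124882) lies on the plus strand of chromosome 4 from 74365143 to 74388751. It stood at 51.2, 54.6 and 61.9 CPM in siNC, at 48.0, 49.98 and 47.2 CPM under siZIP7_1 and at 160.3, 151 and 153 CPM under siZIP7_2. The siZIP7_1 libraries lay just under the lowest siNC library, and the siZIP7_2 libraries were far above. EREG changed by -0.21 ± 0.059 on the log2 scale under siZIP7_1 (adjusted p = 0.0025) and by 1.47 ± 0.056 under siZIP7_2 (adjusted p = 1.5e-19). The difference with siZIP7_1 rested on the third siNC library, without which it was -0.12 and did not pass (adjusted p = 0.084).

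TGFA, which encodes transforming growth factor alpha, another EGFR ligand, fell with siZIP7_1 and rose with siZIP7_2. The gene (ENSG00000163235) lies on the minus strand of chromosome 2 from 70447280 to 70554193. It stood at 40.0, 44.0 and 44.6 CPM in siNC, at 24.4, 26.3 and 24.8 CPM under siZIP7_1 and at 78.4, 75.9 and 85.2 CPM under siZIP7_2. The groups were separate, with siZIP7_1 lowest. Relative to siNC, TGFA differed by -0.77 ± 0.062 on the log2 scale under siZIP7_1 (adjusted p = 4.1e-12) and by 0.90 ± 0.057 under siZIP7_2 (adjusted p = 1.6e-14).

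The list of EGF family ligands holds 11 genes, of which 9 were tested. With siZIP7_1, 1 was higher (AREG), 7 were lower and 1 did not pass, beside 34.8% and 35.9% of all tested genes that were higher and lower, with a median of -1.08 on the log2 scale. With siZIP7_2, 6 were higher and 3 lower, beside 38.5% and 39.3%, with a median of 0.75. EGF itself stood at 6.33 ± 1.02 CPM in siNC (SD, n = 3), 2.82 ± 0.367 CPM under siZIP7_1 and 10.8 ± 0.518 CPM under siZIP7_2, so it was lower and then higher (log2 fold changes -1.17 ± 0.13 and 0.75 ± 0.11). NRG1, the neuregulin that binds ERBB3 and ERBB4, was 155 ± 1.18 CPM in siNC, 26.2 ± 0.431 CPM under siZIP7_1 and 78.1 ± 3.58 CPM under siZIP7_2. NRG1 was thus lower with both siRNAs (log2 fold changes -2.56 ± 0.052 and -0.99 ± 0.047), in the groups in which its receptor ERBB3 was higher. NRG2, a related neuregulin, was 4.28, 2.03 and 7.15 CPM on average in siNC, siZIP7_1 and siZIP7_2, lower with the first siRNA and higher with the second. NRG3 had 0 reads in all 9 libraries, which allows up to 3 counts in each, and NRG4 had 0 to 5 reads per library.

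EPGN, EREG, AREG and BTC lie in that order on chromosome 4. EREG begins 49.8 kb after the end of EPGN, AREG begins 56.4 kb after the end of EREG, and BTC, on the opposite strand, lies 289749 bases beyond AREG. EPGN, which encodes epigen, had 0 or 1 reads per library in siNC and with siZIP7_1, and 15 to 28 reads (0.582 to 0.921 CPM) with siZIP7_2. It was at least 5.58-fold higher with siZIP7_2 than in siNC, taking 3 counts per library as the level in siNC. BTC, which encodes betacellulin, was 1.33 ± 0.366 CPM in siNC, 0.267 ± 0.095 CPM under siZIP7_1 and 0.391 ± 0.102 CPM under siZIP7_2. BTC was lower than in siNC with both siRNAs (log2 fold changes -2.30 ± 0.32 and -1.78 ± 0.30). Of these neighbours, AREG alone was higher with siZIP7_1 and lower with siZIP7_2, whereas EREG and EPGN, which flank it on one side and also carry a TATA box in the bases printed above, were highest with siZIP7_2.

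**Figure D3:**
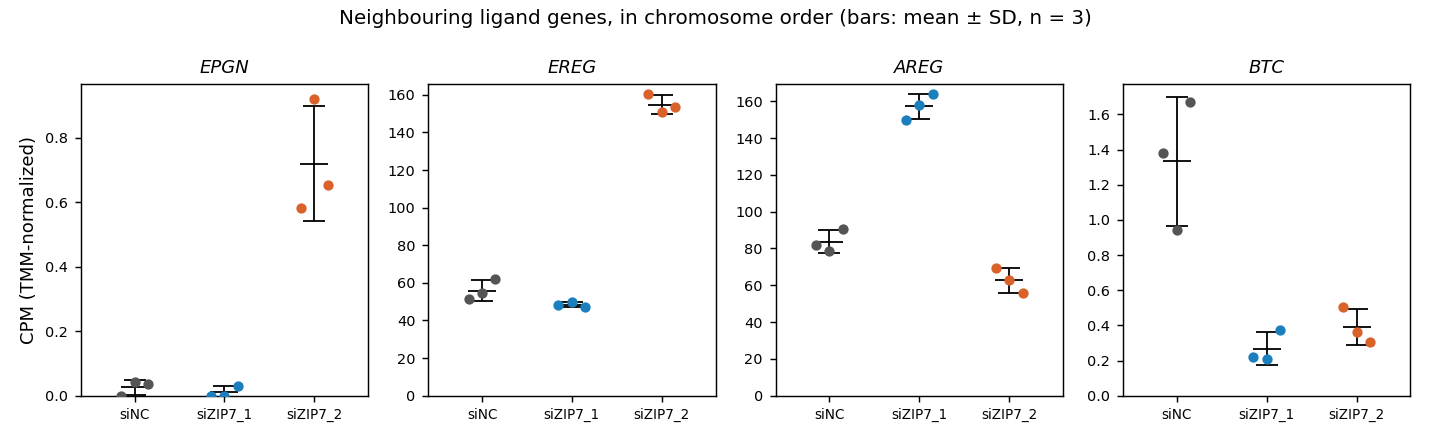
Level (CPM) in each library of the ligand genes EPGN, EREG, AREG and BTC, in their order on chromosome 4; points are libraries, bars are the mean ± SD of 3 libraries and each panel has its own axis from 0. EREG reaches 155 CPM on average with siZIP7_2, where AREG is at its lowest mean of 62.7 CPM.

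The make-up of the ligand transcripts differed by group. Levels of different genes were compared per kilobase of exonic length (CPM per kb), and each EGFR ligand was taken as a share of the summed level of the 7 ligands that bind EGFR. The summed level was 139 ± 4.02 CPM per kb in siNC, 118 ± 4.14 with siZIP7_1 and 221 ± 10.9 with siZIP7_2 (SD, n = 3). HBEGF made up 49.3% ± 2.10 of it in siNC, 7.46% ± 0.486 with siZIP7_1 and 62.1% ± 1.56 with siZIP7_2. AREG made up 36.4% ± 1.65, 80.6% ± 0.758 and 17.2% ± 1.69 in the same order, so the leading ligand transcript was AREG with siZIP7_1 and HBEGF in the other groups. The share of EREG was 7.0%, 7.16% and 12.3%, and that of TGFA 6.19%, 4.29% and 7.29%. EGF, BTC and EPGN each made up less than 1% in every group. With the length of the longest protein-coding transcript in place of all exonic bases, a setting chosen after the data were seen, the AREG shares were 37.8%, 81.8% and 18.1%.

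**Figure D4:**
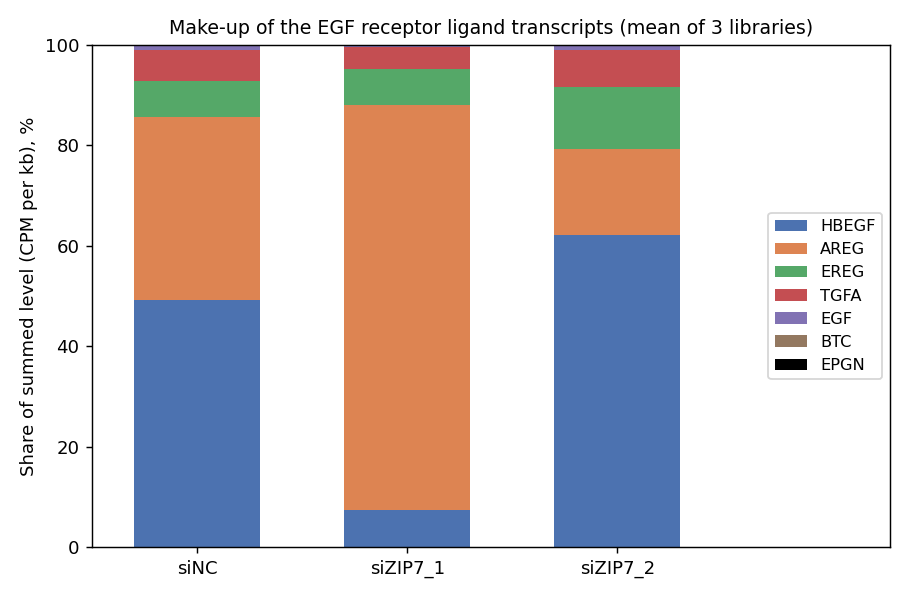
Share of each of 7 EGFR ligands in their summed transcript level (CPM per kb of exonic length), as the mean of 3 libraries per siRNA group; each stacked bar runs from 0 to 100%. AREG takes 80.6% of the bar with siZIP7_1, and HBEGF takes 49.3% with siNC and 62.1% with siZIP7_2.

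Ordered by level per exonic kilobase, HBEGF was highest of the 10 members in siNC at 68.7 CPM per kb, followed by EGFR at 53.6 ± 1.59 and AREG at 50.8 ± 3.70. The EGFR and AREG libraries overlapped on this scale. EREG (9.78 CPM per kb) and TGFA (8.64) came next and overlapped too, then ERBB2 (7.19), IGF1R (6.44), SRC (5.57) and CSNK2A1 (5.39), with ERBB3 last at 0.262. The SRC and CSNK2A1 libraries also overlapped. The order in the middle depends on the length used, since CSNK2A1 has 29523 exonic bases and a longest coding transcript of 12912 bases, by which its siNC level was 12.3 CPM per kb, near EREG at 12.1. With siZIP7_1 the order began with AREG (95.4), EGFR (45.1) and IGF1R (17.5), and HBEGF dropped to 8.81, close to ERBB2 at 8.53 and EREG at 8.46. With siZIP7_2 it began with HBEGF (137), EGFR (71.1), AREG (38.1) and EREG (27.1). EGFR was second in every group, and ERBB3 was last in every group.

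Ligand shedding was represented by 12 genes for ADAM proteases and their partners. With siZIP7_1, 8 were higher and 4 lower, with a median of 0.19, beside 34.8% and 35.9% of all tested genes. With siZIP7_2, 7 were higher and 5 lower, with a median of 0.18, beside 38.5% and 39.3%. ADAM15, a membrane protease, was lower with both siRNAs (-0.69 ± 0.045 and -1.58 ± 0.047). RHBDF1, an iRhom protein that escorts ADAM17 to the surface, was higher with both (0.65 ± 0.054 and 1.04 ± 0.053), as was the tetraspanin TSPAN14 (0.41 ± 0.050 and 0.84 ± 0.050). The related RHBDF2 (0.19 ± 0.060 and -0.24 ± 0.062) and FRMD8 (0.18 ± 0.050 and -0.41 ± 0.051) moved in opposite directions. RHBDF2 and FRMD8 were named after their values were seen. ADAM17, the main sheddase of HBEGF, AREG, EREG and TGFA, was chosen after its values were seen. It stood at 93.4 ± 5.67 CPM in siNC, 67.0 ± 1.32 CPM under siZIP7_1 and 171 ± 6.14 CPM under siZIP7_2, with log2 fold changes of -0.48 ± 0.051 and 0.87 ± 0.050. Other genes overlap 13.6% of the exonic bases of ADAM17. ADAM9, ADAM10 and ADAM12, on the same list, were also named after their values were seen. ADAM9 went the opposite way, at 342 ± 22.1, 473 ± 25.1 and 208.5 ± 5.69 CPM in siNC, siZIP7_1 and siZIP7_2. ADAM10 was slightly higher with both siRNAs (0.185 ± 0.050 and 0.176 ± 0.050). ADAM12, at 3.39 ± 0.705 CPM in siNC, was lower with siZIP7_1 and higher with siZIP7_2 (-1.67 ± 0.18 and 2.83 ± 0.11).

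IGF1R, the receptor of insulin-like growth factors, was higher with both siRNAs. The gene (ENSG00000140443) lies on the plus strand of chromosome 15 from 98648539 to 98964530. It stood at 90.8, 90.3 and 88.2 CPM in siNC, at 253, 243 and 235 CPM under siZIP7_1 and at 114, 122 and 124 CPM under siZIP7_2. The siZIP7_1 libraries were far above the rest and the siZIP7_2 libraries stood just over siNC. IGF1R changed by 1.44 ± 0.048 on the log2 scale under siZIP7_1 (adjusted p = 6.0e-21) and by 0.42 ± 0.049 under siZIP7_2 (adjusted p = 7.4e-09). On the log2 scale, siZIP7_2 minus siZIP7_1 was -1.02 ± 0.047. Of 15 genes of the IGF axis, 11 were tested, and 4 were higher and 7 lower with siZIP7_1, with a median of -0.25, beside 34.8% and 35.9% of all tested genes. With siZIP7_2, 5 were higher, 4 lower and 2 did not pass, with a median of 0.13, beside 38.5% and 39.3%. INSR, the insulin receptor, was higher with both (0.58 ± 0.068 and 0.90 ± 0.067). IRS1, the substrate that carries the signal of both receptors, was lower with both and more so with siZIP7_2 (-0.51 ± 0.049 and -2.06 ± 0.052), and so was IGFBP4, a secreted inhibitor of IGF (-0.25 ± 0.048 and -1.31 ± 0.049).

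SRC, the membrane-linked tyrosine kinase that acts with EGFR, was slightly lower with siZIP7_1 and clearly higher with siZIP7_2. The gene (ENSG00000197122) lies on the plus strand of chromosome 20 from 37344685 to 37406050. It stood at 35.9, 35.1 and 37.1 CPM in siNC, at 29.5, 29.1 and 29.7 CPM under siZIP7_1 and at 91.7, 94.1 and 95.9 CPM under siZIP7_2. The siZIP7_2 libraries were far above both other groups. For SRC the log2 fold change against siNC was -0.29 ± 0.054 under siZIP7_1 (adjusted p = 2.4e-05) and 1.38 ± 0.051 under siZIP7_2 (adjusted p = 4.9e-20). Of the 12 genes listed for SRC family kinases and their regulators, 8 were tested. With siZIP7_1, 5 were higher, 2 lower and 1 did not pass, with a median of 0.45, beside 34.8% and 35.9% of all tested genes. With siZIP7_2, 4 were higher, 3 lower and 1 did not pass, with a median of 0.15, beside 38.5% and 39.3%. Under upper-quartile normalization 1 rather than 3 was lower with siZIP7_2. YES1, the close relative of SRC, was also lower with siZIP7_1 and higher with siZIP7_2 (-1.88 ± 0.059 and 0.29 ± 0.054). LYN (0.90 ± 0.069 and 0.52 ± 0.071) and FYN (0.90 ± 0.056 and 0.38 ± 0.057) were higher with both.

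CSNK2A1, the catalytic alpha subunit of CK2, was lower with both siRNAs. The gene (ENSG00000101266) lies on the minus strand of chromosome 20 from 472498 to 543835. It stood at 158, 161 and 158 CPM in siNC, at 106, 109 and 105 CPM under siZIP7_1 and at 127, 135 and 135 CPM under siZIP7_2. The siZIP7_1 libraries were lowest, and the siZIP7_2 libraries lay between the other groups. CSNK2A1 changed by -0.58 ± 0.045 on the log2 scale under siZIP7_1 (adjusted p = 2.8e-12) and by -0.27 ± 0.045 under siZIP7_2 (adjusted p = 4.6e-06). The rest of the CK2 list is given in full. The other catalytic subunit, CSNK2A2, was lower with siZIP7_1 and higher with siZIP7_2 (-1.01 ± 0.052 and 0.26 ± 0.049). The regulatory subunit CSNK2B was lower with siZIP7_1 (-0.24 ± 0.054), and with siZIP7_2 its value was -0.042 (adjusted p = 0.48). Without the first siNC library, 2 rather than 1 of the 4 CK2 genes were higher with siZIP7_2. With all libraries, 38.5% of all tested genes were higher and 39.3% lower with siZIP7_2. CSNK2A3, an intronless gene near-identical to CSNK2A1, had 4 to 27 reads per library and did not pass against siNC with either siRNA, and reads could be split between these copies. Other genes overlap 37.1% of the exonic bases of CSNK2B and 41.9% of those of CSNK2A3.

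A list of 14 transcripts that ERK signalling is known to induce was followed downstream of the receptors. The list was chosen with earlier results of these data known. Its counts therefore describe these 14 genes and are no independent test of ERK signalling, which was not measured. With siZIP7_1, all 14 were lower than in siNC and none was higher, beside 35.9% of all tested genes that were lower, with a median of -1.21 on the log2 scale. With siZIP7_2, 8 were higher, 4 lower and 2 did not pass, with a median of 0.27, beside 38.5% and 39.3%. Between the siRNAs, 13 were higher with siZIP7_2, none was lower and 1 did not pass (MYC, named after its value was seen), with a median of 1.31, beside 38.1% and 40.6% of all tested genes. FOSL1, an AP-1 subunit, was 562 ± 23.0 CPM in siNC, 186 ± 4.58 CPM under siZIP7_1 and 305 ± 7.91 CPM under siZIP7_2, and was lower with both siRNAs (-1.59 ± 0.047 and -0.88 ± 0.046). CCND1, which encodes cyclin D1, was lower with both as well (-1.18 ± 0.049 and -0.57 ± 0.048), and so was the ETS factor ETV4, by little with siZIP7_2 (-1.32 ± 0.053 and -0.11 ± 0.050). The counts depend on what the list holds. DUSP6 is counted here, whereas DUSP5, listed only with the inhibitors below, was higher with both siRNAs (0.30 ± 0.050 and 0.48 ± 0.050). DUSP5 was named after its values were seen.

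Of the 14 ERK-induced transcripts, 8 passed in opposite directions with the siRNAs. From these, IER3, EGR1 and FOS were chosen after their values were seen. The others were also lower with siZIP7_1 and rose less with siZIP7_2. Their log2 fold changes with siZIP7_2 were 0.43 for LIF, 0.38 for ETV5, 0.29 for SPRY4, 0.24 for PHLDA1 and 0.24 for DUSP6. IER3, an immediate early gene, stood at 411 ± 4.67 CPM in siNC, 68.9 ± 1.66 CPM under siZIP7_1 and 3429 ± 14.1 CPM under siZIP7_2, and an antisense gene overlaps 26.5% of its exonic bases. On the log2 scale IER3 changed by -2.58 ± 0.050 under siZIP7_1 and by 3.06 ± 0.049 under siZIP7_2. EGR1, an early growth response factor, was 45.2 ± 1.51, 18.95 ± 2.00 and 138 ± 4.39 CPM in the same order (-1.25 ± 0.064 and 1.61 ± 0.057). FOS, an AP-1 subunit, was 5.48 ± 1.41, 3.60 ± 0.382 and 18.7 ± 0.451 CPM (-0.58 ± 0.14 and 1.79 ± 0.11). HBEGF, TGFA, EREG, IER3, EGR1 and FOS, a set picked after the values were seen, had their lowest level with siZIP7_1 and their highest with siZIP7_2. For EREG the difference between siZIP7_1 and siNC rested on the third siNC library. AREG ran the other way, and 4 ERK-induced transcripts (FOSL1, CCND1, ETV4 and MYC) were lower with both siRNAs. Of all tested genes, 18.7% passed in opposite directions with the siRNAs.

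**Figure D5:**
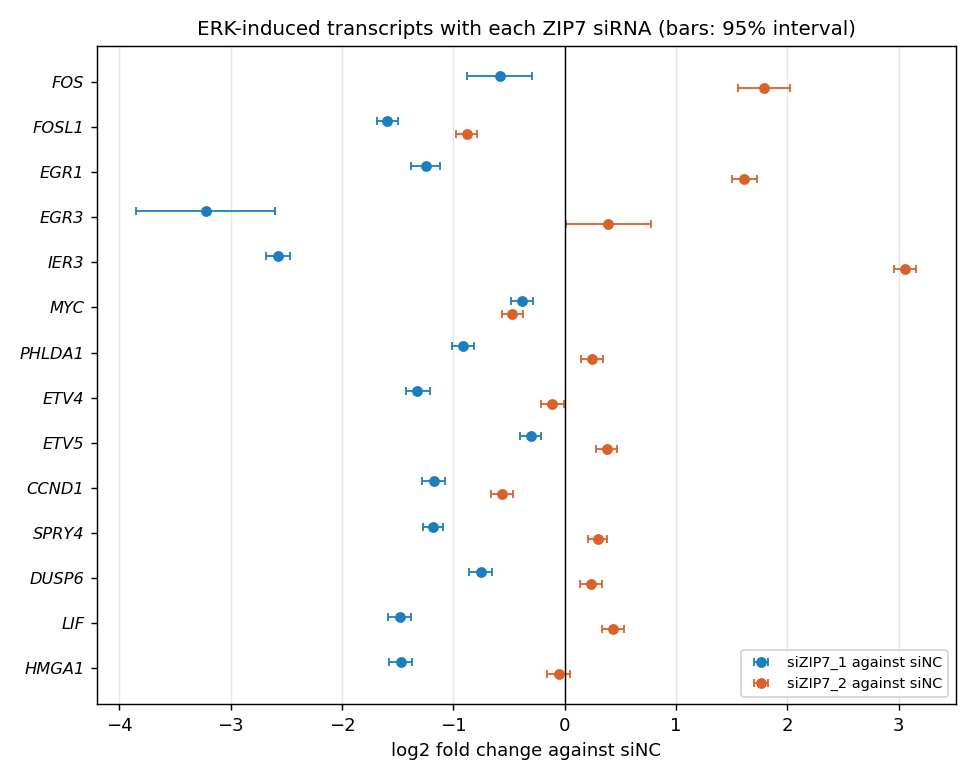
Log2 fold change against siNC of 14 transcripts known to be induced by ERK, with siZIP7_1 and siZIP7_2; points are edgeR estimates, bars are 95% intervals and the vertical line marks no change. Every siZIP7_1 point lies below 0, with a median of -1.21, and the siZIP7_2 points range from below 0 for FOSL1 (-0.88) to 3.06 for IER3.

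The parts of the pathway between the receptors and these transcripts moved in both directions with each siRNA. Of 19 adaptors and members of the RAS-ERK cascade, 9 were higher, 7 lower and 3 did not pass with siZIP7_1 (median 0.017), and 7 were higher, 8 lower and 4 did not pass with siZIP7_2 (median 0.031), beside 34.8% and 35.9% of all tested genes with siZIP7_1 and 38.5% and 39.3% with siZIP7_2. The balance with siZIP7_2 depended on the scaling, since under upper-quartile normalization 10 were higher and 5 lower. The adaptor GRB2, which links receptors to RAS, was 115 ± 4.01 CPM in siNC and rose with both siRNAs, to 284 ± 15.0 and 280.3 ± 10.9 CPM, and the difference between the siRNAs was -0.018 (95% interval -0.12 to 0.08, adjusted p = 0.74). The scaffold KSR1 was higher with both (1.26 ± 0.062 and 1.04 ± 0.063), and the RAS inhibitor RASA1 was lower with both, mostly with siZIP7_1 (-1.81 ± 0.053 and -0.20 ± 0.050). Of 14 genes of the PI3K-AKT arm, 4 were higher, 5 lower and 5 did not pass with siZIP7_1 (median -0.0083), and 5 were higher, 5 lower and 4 did not pass with siZIP7_2 (median -0.025), where upper-quartile normalization gave 6 higher and 2 lower. PIK3R3, a regulatory subunit of PI3K, was higher with both, mostly with siZIP7_2 (0.23 ± 0.074 and 1.86 ± 0.068). RICTOR, a subunit of mTOR complex 2, was higher (0.70 ± 0.055 and 0.58 ± 0.056) and the kinase MTOR lower with both (-0.30 ± 0.049 and -0.70 ± 0.050).

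Inhibitors of the receptors and the pathway formed a list of 22 genes, of which 21 were tested. With siZIP7_1, 8 were higher, 11 lower and 2 did not pass (median -0.21), beside 34.8% and 35.9% of all tested genes. With siZIP7_2, 12 were higher, 8 lower and 1 did not pass (median 0.29), beside 38.5% and 39.3%. SPRY4 and DUSP6 stand both in this list and among the ERK-induced transcripts. Of the 21 tested, 12 passed in opposite directions with the siRNAs, beside 18.7% of all tested genes. Another 4 were higher with both, beside 17.7%, and 2 were lower with both, beside 20.8%. SPRY1, an inhibitor of RAS activation, was lower with both siRNAs (-0.54 ± 0.058 and -1.58 ± 0.064), and so was DUSP4, an ERK phosphatase (-0.73 ± 0.048 and -1.06 ± 0.049). SOCS3, an inhibitor of cytokine receptors, was higher with both (0.58 ± 0.058 and 0.80 ± 0.058). CBLB, CBL, LRIG1 and ERRFI1 were chosen after their values were seen. CBLB, a ubiquitin ligase that marks EGFR for degradation, was 20.4 ± 1.72 CPM in siNC, 81.3 ± 4.74 CPM under siZIP7_1 and 10.1 ± 0.911 CPM under siZIP7_2. The order of CBLB was opposite to that of EGFR. CBL (-0.53 ± 0.057 and 0.405 ± 0.056) and LRIG1 (-1.215 ± 0.081 and 0.79 ± 0.070) were instead lower with siZIP7_1 and higher with siZIP7_2, as EGFR was. The part of these genes in the EGFR result was not tested. ERRFI1, an inhibitor that binds the EGFR kinase, was 971 ± 37.3 CPM in siNC, 503.5 ± 8.77 CPM under siZIP7_1 and 981 ± 5.76 CPM under siZIP7_2. ERRFI1 was lower with siZIP7_1 (-0.95 ± 0.046), and with siZIP7_2 its value was 0.015 (adjusted p = 0.78).

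The genes whose levels followed EGFR most closely across the 9 libraries, among 13735 compared, were EDF1, UPF1 and P2RX5 (Pearson r of log2 CPM from 0.994 to 0.995). For AREG they were KYAT3, ICA1 and MYSM1 (r from 0.993 to 0.995). These correlations describe 9 libraries that fall into 3 siRNA groups and carry no test.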

How the data were processed

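Total RNA from 9 MDA-MB-231 samples was sequenced as single reads. The values the authors deposited are unnormalized counts, one file per library, keyed by Ensembl identifier. Per the labels, the submitters' processing notes name Trim Galore 0.4.1, FastQC 0.11.2, STAR, HTSeq 0.6.1 and DESeq2 1.16.1, and the genome build and strand setting are not given in the sources used here. Unassigned lines (shares in the report, with 2.66% to 2.91% of reads ambiguous between genes) were left out. Of 58395 identifiers, 58275 matched GENCODE 29, which gave symbols, positions and exonic lengths.

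The test was edgeR 4.0.16 under R 4.3.3 (TMM normalization, low-count filter, one fit to all 9 libraries with 6 residual degrees of freedom, quasi-likelihood test, Benjamini-Hochberg adjustment over 16761 genes, threshold 0.05). The 1.8-fold test was glmTreat, and ± on a log2 fold change is its SE. CPM used TMM library sizes. Alternatives were DESeq2 1.42.0, other normalizations and filters, a replicate block, fits to the groups compared and leaving out each library. The members and lists were chosen with earlier results of these data known. Non-members named are up to 3 per list, with the largest absolute mean of both log2 fold changes among genes of at least 1 CPM that passed with both siRNAs, and every EGF family and CK2 gene, CSNK2B and CSNK2A3 having been added outside that rule after their values were seen. Where a gene was chosen after its values were seen, the text says so.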

Additional observations from a re-analysis of the deposited data

Results flagged for a closer look

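For 7 members, 1 siRNA was above siNC and the other below it, beside 18.7% of all tested genes that passed in opposite directions, and the direct comparison of siZIP7_2 with siZIP7_1 passed the edgeR test. Both comparisons with siNC share its libraries. The log2 difference, siZIP7_2 minus siZIP7_1, was 3.96 for HBEGF, 1.68 for EREG, 1.67 for SRC, 1.67 for TGFA and 0.66 for EGFR, and it was -1.33 for AREG and -0.57 for ERBB2. The libraries of the siRNAs did not overlap for any of them, beside 79.7% of all tested genes whose libraries did not overlap in this comparison and 78.7% that passed it. The remaining SLC39A7 transcript was 10.8% of siNC with siZIP7_1 and 5.84% with siZIP7_2, and each siRNA is a single reagent, so the depth of the knockdown and the identity of the siRNA cannot be told apart.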

How the results depend on the processing

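Of 480 alternative values of the members' log2 fold changes, 479 kept their direction and their side of the threshold and none reversed. EREG with siZIP7_1 lost the threshold without the third siNC library. Of the alternative counts for the members and the lists, with the 1.8-fold test included, 54 moved well away from the main count. The other 1017 stayed the same or near it. The replicate block left 10 members called in each comparison and moved none by more than 0.002, and it called 11927, 13080 and 13242 genes for siZIP7_1, siZIP7_2 and siZIP7_2 against siZIP7_1. Deviations of libraries with the same number correlated between -0.0493 and 0.0754, so the numbers were not taken as pairs, and 3 of 9 libraries correlated best with their own number. Upper-quartile normalization moved the median of all genes to 0.10 for siZIP7_2 against siNC and turned no member, but it changed the counts of 3 lists with siZIP7_2, as the report gives. With the 1.8-fold test, which calls fewer genes by construction (2836, 4134 and 4725), 3 members passed with siZIP7_1 and 4 with siZIP7_2. Of the EGF family ligands, 0 were then higher and 4 lower with siZIP7_1 and 3 higher and 2 lower with siZIP7_2, and of the ERK-induced transcripts 9 were lower with siZIP7_1, 3 higher and 0 lower with siZIP7_2. Without a low-count filter, 1 ERK-induced transcript was lower with siZIP7_2 than with siZIP7_1; the cause was not tested. EPGN, ERBB4 and CSNK2A3 rest on few reads, which limits their precision.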
